A study of Rattus norvegicus with 28 samples.

Results

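The alloresponse of the graft endothelium was taken as the change from normal to transplanted heart in allografts minus the same change in isografts, averaged over days 2, 3 and 4 after transplantation. It used the 24 endothelial samples of the 28 in the series, which formed 8 groups of 3, and asked which transcripts of the vessel lining answered to a mismatched recipient beyond what transplantation itself brought. Allografts were hearts of Dark Agouti (DA) rats placed in Lewis recipients and taken on day 2, 3 or 4, and their controls were normal, non-transplanted DA hearts. Isografts were Lewis hearts placed in Lewis recipients and taken on the same days, and their controls were normal Lewis hearts. All animals were male, no drug treatment is named in the labels, and the grafts were joined to vessels of the neck. From each minced heart cells carrying the leukocyte protein CD45 were first removed and cells carrying CD31 were then collected on magnetic beads. CD31 is carried by endothelium but also by platelets and many leukocytes. The 4 remaining samples were leukocytes of allografts on day 2 (1 sample), day 3 (2 samples) and day 4 (1 sample) and served here only to show which transcripts leukocytes carry. The labels speak of 3 biological replicates without tying each to an animal, so p-values measure the spread between these samples. Every allograft was of DA and every isograft of Lewis tissue, so the mismatch and a difference in how both strains answer to transplantation cannot be told apart.

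A grafted heart meets its recipient first at the endothelium of the donor. Recipient T cells that recognise foreign major histocompatibility complex (MHC) molecules release interferon-gamma, which acts on endothelial cells. Textbook targets of this cytokine are chemokines that draw more T cells, enzymes that break down tryptophan, the machinery that loads peptides on MHC class I, and, through the coactivator CIITA, MHC class II. Isografts undergo the same surgery, ischaemia and wound response without the foreign antigen.

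For each gene this alloresponse also equals the difference between allografts and isografts minus the difference that normal DA and normal Lewis hearts already had. The 6 normal hearts contributed 75% of the variance of the comparison and the 18 grafts 25%, if all arrays vary alike. Averaging the days lowered the standard error (SE) to 0.816 of that of 1 day. The median SE over 14217 genes was 0.191 on the log2 scale, on which a difference of 1 is 2-fold, and at this SE a gene standing alone would have needed a difference of 1.21 log2 to be called. Replicates correlated across genes with r between 0.965 and 0.995, and the median SD over genes ran from 0.134 log2 in normal DA hearts to 0.231 log2 in allografts of day 2. The labelled cell type was borne out by 16 endothelial markers, whose mean per array was 11.74 to 12.26 log2 in the 24 endothelial samples and 8.08 to 10.16 log2 in the leukocyte samples. Leukocyte transcripts were present as well. The mean of 15 pan-leukocyte genes was 7.51 to 7.67 log2 in normal DA hearts, 7.62 to 7.88 in normal Lewis hearts, 8.76 to 9.54 in allografts, 8.04 to 8.95 in isografts and 11.60 to 11.76 in leukocytes. The leukocyte arrays had been normalized apart, and their levels are given after removal of the median difference of 0.327 log2, so levels set across both kinds of sample are descriptions only. In such bulk samples fewer cells of a type and less RNA per cell cannot be told apart.

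Transplantation changed many genes in both graft types, and the changes resembled each other. In allografts 792 genes rose (5.57% of all tested) and 546 fell (3.84%) against normal DA hearts, by limma at an adjusted p under 0.05. In isografts 468 genes rose (3.29%) and 179 fell (1.26%) against normal Lewis hearts. Of these, 370 rose in both, which was 46.7% of the allograft list and 79.1% of the isograft list, and 114 fell in both, 20.9% and 63.7%. No gene passed in opposite directions, a count of 0. Across the 14217 genes, which are no independent replicates, both changes correlated with r = 0.814, and they have no array in common. Grafts differed from each other in 561 genes that were higher in allografts (3.95%) and 491 that were lower (3.45%), while normal DA hearts differed from normal Lewis hearts in 69 higher (0.485%) and 75 lower genes (0.528%). Single normal hearts weighed on these counts. The 1338 called genes of allografts became 677 without DA normal replicate 2 and 726 without DA normal replicate 3, and the 647 of isografts became 382, 339 and 393 without Lewis normal replicate 1, 2 or 3. The 144 genes that differed between normal hearts became 93 without DA normal replicate 1, 75 without DA normal replicate 2 and 83 without Lewis normal replicate 2, and the 1052 that differed between grafts became 1626 without allograft day 4 replicate 1. When the changes were subtracted, 1 gene was called higher (0.00703%) and 0 were called lower. At an unadjusted p under 0.05 there were 307 higher genes (2.16%) and 271 lower genes (1.91%) by limma, together 4.07% of all tested.

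**Figure D1:**
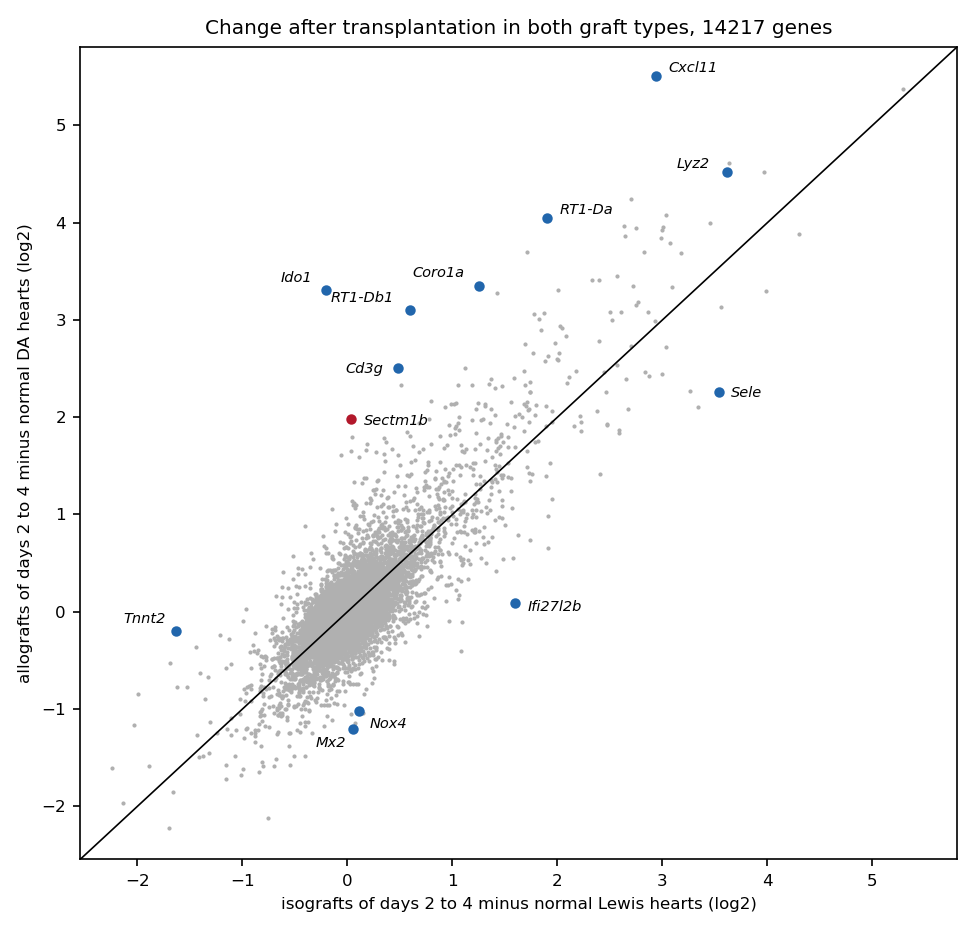
Change of 14217 genes in isografts (horizontal axis, mean of days 2 to 4 minus normal Lewis hearts, log2) and in allografts (vertical axis, mean of days 2 to 4 minus normal DA hearts, log2), 1 grey point per gene and named genes in colour. The alloresponse is the height above the diagonal, and Sectm1b (red), at 0.03 in isografts and 1.98 in allografts, was the gene called.

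Sectm1b was the gene whose alloresponse was called. It belongs to the SECTM1 family, whose human member is a ligand of the lymphocyte receptor CD7. Its log2 signal was 6.36, 6.42 and 6.43 in normal DA hearts, 7.22, 7.23 and 6.67 in allografts of day 2, 8.0, 8.34 and 8.79 on day 3, and 8.99, 9.64 and 10.56 on day 4. In normal Lewis hearts it was 6.46, 6.64 and 6.56, and in isografts 6.43, 6.49 and 6.64 on day 2, 6.67, 6.74 and 6.74 on day 3, and 6.62, 6.63 and 6.33 on day 4. All 9 allografts lay above the 3 normal DA hearts, the 3 days of allografts did not overlap each other, and the isografts stayed within or near the range of normal hearts. Sectm1b rose by 1.98 log2 in allografts (SE 0.21, adjusted p = 3.67e-06), stood at 0.03 log2 in isografts (SE 0.21, adjusted p = 0.971), and its alloresponse was 1.95 log2 (SE 0.30, 95% interval 1.32 to 2.57, adjusted p = 0.0348 by limma). Normal hearts contributed little, with DA at -0.15 log2 against Lewis. The 4 leukocyte samples were at 6.72, 6.97, 7.18 and 7.64 log2, below all 6 allografts of days 3 and 4. The call held when allograft day 2 replicate 3, day 3 replicate 1 or 3, or day 4 replicate 1 or 3 was left out (adjusted p 0.000621 to 0.0454), and was lost without any other single array, with values of 1.90 to 1.99 log2 and adjusted p from 0.0611 (without isograft day 2 replicate 3) to 0.251 (without Lewis normal replicate 2). It was lost too with arrays centred on their medians (1.96 log2, adjusted p = 0.0692), without day 3 (2.02, 0.194) or day 4 (1.24, 0.263), with the pan-leukocyte mean as a covariate (1.80, 0.897), and when all 20826 probe sets were tested in place of 1 per gene (1.95, 0.0525).

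**Figure D2:**
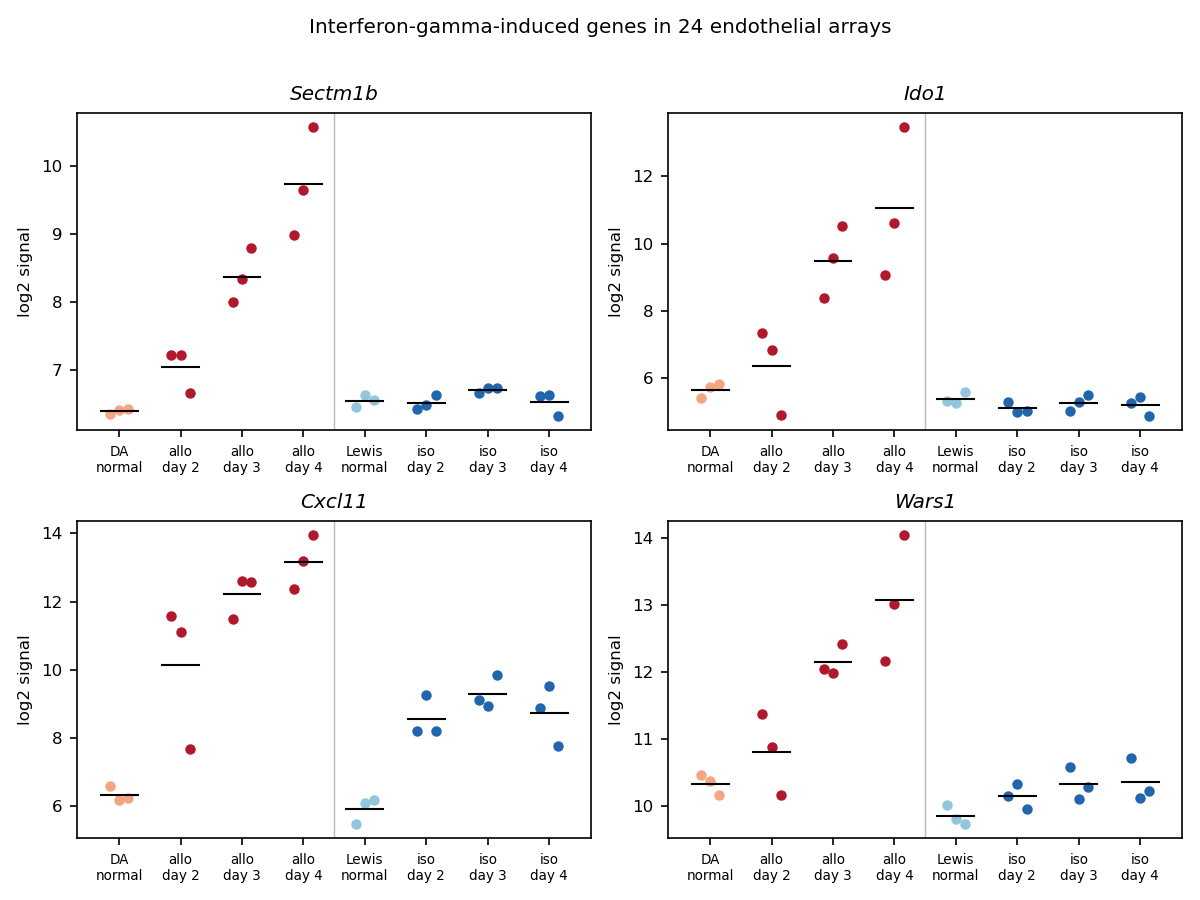
Log2 signal of Sectm1b, Ido1, Cxcl11 and Wars1 in each of the 24 endothelial arrays, 1 point per array and a line at the mean of 3, with normal DA hearts and allografts left and normal Lewis hearts and isografts right in each panel. Sectm1b, Ido1 and Wars1 were higher on later days in allografts, from 6.67 to 10.56 for Sectm1b, and near normal hearts in isografts, while Cxcl11 was higher than in normal hearts in both graft types.

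The promoters of Sectm1b and of 2 genes with a similar pattern, Batf2 and Tap1, are shown (values follow). Ido1, Wars1 and Il18bp were closer to Sectm1b over the arrays, so the 2 do not stand for all such genes. The sequences run from 250 bases before to 50 bases after the start of the gene, in RefSeq's rat assembly GRCr8, and 17 of 19 genes looked up had an entry there. Capitals mark a match, on either strand, to GAAA, any 2 bases and GAAA again, the core of the interferon-stimulated response element, to TTCNNNGAA, the gamma-activated site, or to CCAAT, the box that stands in promoters of MHC class II genes among many others.
Sectm1b, chr10:106832055-106832354, minus strand: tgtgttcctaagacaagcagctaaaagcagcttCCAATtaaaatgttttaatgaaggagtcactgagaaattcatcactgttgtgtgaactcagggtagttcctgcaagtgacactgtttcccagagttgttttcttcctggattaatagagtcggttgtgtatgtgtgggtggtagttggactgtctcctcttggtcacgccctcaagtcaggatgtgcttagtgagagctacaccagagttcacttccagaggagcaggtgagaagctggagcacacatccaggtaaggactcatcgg
Batf2, chr1:212897096-212897395, plus strand: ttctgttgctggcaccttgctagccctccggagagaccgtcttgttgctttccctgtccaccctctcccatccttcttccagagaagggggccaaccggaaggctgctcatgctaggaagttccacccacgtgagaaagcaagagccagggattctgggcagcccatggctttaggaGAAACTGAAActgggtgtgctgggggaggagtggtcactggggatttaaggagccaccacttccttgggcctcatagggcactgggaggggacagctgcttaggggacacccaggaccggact
Tap1, chr20:4668494-4668793, minus strand: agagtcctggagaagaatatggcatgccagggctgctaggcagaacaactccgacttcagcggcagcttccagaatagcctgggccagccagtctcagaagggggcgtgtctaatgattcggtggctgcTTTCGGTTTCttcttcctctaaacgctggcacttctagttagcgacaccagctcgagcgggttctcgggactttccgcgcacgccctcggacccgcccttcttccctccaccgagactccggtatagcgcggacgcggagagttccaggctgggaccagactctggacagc
The response element core stood in the promoters of Batf2, at position -73 from the start of the gene, and of Tap1, at -121. Among the 17 it stood also in those of Il18bp, Cxcl10, Gbp2 and Igtp, and it was found in 3.92% of 33469 promoters of this length. The Sectm1b promoter held neither interferon motif in this window and a single CCAAT at -217, a box found in 37.5% of promoters. That of Wars1 held neither interferon motif as well, and Ido1 had no entry. The gamma-activated site, found in 8.87%, stood in those of Cxcl9, Cxcl11 and Igtp. A match is a description of letters and shows no binding.

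The 5 genes whose pattern over the 24 arrays was most like that of Sectm1b were Ido1 (r = 0.976), Wars1 (0.966), Il18bp (0.956), Batf2 (0.945) and Tap1 (0.935), by Pearson's correlation. These arrays fall into allografts and others, and over the 15 arrays that were no allografts r lay between -0.141 and 0.196, so the likeness rests on the 9 allografts. Ido1, the first enzyme of tryptophan breakdown, had log2 signals of 5.41, 5.74 and 5.83 in normal DA hearts, 7.34, 6.84 and 4.92 in allografts of day 2, 8.38, 9.56 and 10.52 on day 3, and 9.08, 10.62 and 13.45 on day 4. The 12 samples of Lewis hearts lay between 4.89 and 5.58 log2. The leukocyte samples were at 6.23 to 8.84 log2. Allografts of days 3 and 4 stood above all other endothelial samples, and day 2 replicate 3 was below the normal DA hearts. Ido1 rose by 3.31 log2 in allografts (SE 0.60, adjusted p = 0.00096) and its alloresponse was 3.51 log2 with an SE of 0.84, which did not pass (adjusted p = 0.506). Wars1, which charges transfer RNA with tryptophan, rose by 1.68 log2 in allografts and had an alloresponse of 1.25 log2 (SE 0.38, adjusted p = 0.874). Il18bp, the soluble inhibitor of interleukin 18, and Batf2, a leucine zipper transcription factor, had alloresponses of 1.07 (SE 0.44) and 1.62 log2 (SE 0.61), and Tap1, the peptide transporter of class I loading, of 0.47 log2 (SE 0.31). Each of these 5 genes passed in the allograft arm and not in the isograft arm, and none passed in the difference of both.

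Interferon-gamma-induced effectors and chemokines, a list of 12 measured genes, leaned higher. This list, like those that follow, was chosen with earlier results of these data known, so its counts are descriptions and no independent support. Sectm1b, itself a member, passed. With it 5 of the 12 had an unadjusted p under 0.05 on the higher side and 0 on the lower, against 2.16% and 1.91% of all genes, and the median was 0.80 log2 against 0.01 log2 over all genes. Values ran from -0.13 to 3.51 log2. In allografts 9 of the 12 rose and in isografts 2, against 5.57% and 3.29% of all genes. Those 2 were Cxcl11, a chemokine for activated T cells, and Ubd, a ubiquitin-like modifier. Cxcl11 was at 6.59, 6.17 and 6.23 log2 in normal DA hearts, at 11.59, 11.12 and 7.67 in allografts of day 2, 11.47, 12.61 and 12.57 on day 3, and 12.36, 13.18 and 13.94 on day 4. Normal Lewis hearts had 5.47, 6.10 and 6.19 log2 and isografts had 7.77 to 9.83 log2. Every allograft except day 2 replicate 3 was above every isograft, and every isograft was above every normal heart. Cxcl11 rose by 5.50 log2 in allografts (adjusted p = 2.29e-06) and by 2.94 log2 in isografts (adjusted p = 0.0031), and its alloresponse was 2.57 log2 (SE 0.80, adjusted p = 0.881). Its relatives Cxcl9 and Cxcl10 rose by 2.15 and 2.33 log2 in allografts and had alloresponses of 0.90 and 0.64 log2, and without Lewis normal replicate 2 these values were 0.49 and -0.01 log2. For the list as a whole the mean alloresponse of 1.20 log2 was made of 1.85 log2 between grafts and 0.65 log2 by which normal DA hearts were already above normal Lewis hearts. None of the 12 was at least 2-fold higher in leukocytes than in allograft endothelium without overlap, a property of 8.61% of all genes. That property needs the lowest leukocyte sample of any day to lie above the highest allograft of any day. Genes that rise from day to day can hardly meet it, so the count does not show that leukocytes lack these transcripts. The 14 receptors and transducers of interferons had a median of -0.08 log2, with 1 gene, Ifngr1, the ligand-binding chain of the interferon-gamma receptor, at an unadjusted p under 0.05 (0.39 log2, SE 0.16).

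MHC class II genes, which present peptides to helper T cells, had the highest median of the lists, 1.62 log2 over 8 measured genes. None was called, 7 of the 8 had an unadjusted p under 0.05 on the higher side (2.16% of all genes), and all 8 values were above 0. In allografts 7 rose and in isografts 5 (5.57% and 3.29% of all genes). RT1-Db1, a class II beta chain, was at 6.13, 6.15 and 5.76 log2 in normal DA hearts, 8.96, 7.73 and 8.55 in allografts of day 2, 8.43, 9.01 and 9.71 on day 3, and 8.94, 10.22 and 10.48 on day 4. Normal Lewis hearts were at 6.15, 6.58 and 6.19 log2, and isografts at 5.86, 7.21 and 5.74 on day 2, 6.49, 7.58 and 6.90 on day 3, and 7.22, 7.13 and 8.0 on day 4. Of the allografts only day 2 replicate 2 lay within the range of isografts. RT1-Db1 rose by 3.10 log2 in allografts (SE 0.36, adjusted p = 7.59e-06), and its alloresponse was 2.51 log2 (SE 0.50, 95% interval 1.46 to 3.56, adjusted p = 0.381), the smallest p after Sectm1b. RT1-Da, the alpha chain that pairs with it, rose by 4.04 log2 in allografts and by 1.90 log2 in isografts, with an alloresponse of 2.14 log2 (SE 0.52, adjusted p = 0.506). RT1-Bb, a beta chain of the other class II molecule, was at 1.98 log2 (SE 0.61), the invariant chain Cd74 at 1.85 log2 (SE 0.57), and the peptide exchangers RT1-DMb and RT1-DMa at 1.38 and 1.11 log2. Ciita, the coactivator of these genes, rose by 0.96 log2 in allografts, stood at -0.01 log2 in isografts and had an alloresponse of 0.97 log2 (unadjusted p = 0.028). The probe sets of RT1-Ba, the alpha chain that pairs with RT1-Bb, disagreed. The brightest, used in these counts, stood at 0.15 log2, while the others stood at 2.20 (SE 0.51), 0.55 (SE 0.27) and 0.00 log2 (SE 0.23), so that no direction is given for this gene. A dimmer probe set of RT1-Db1 stood at 1.07 log2 (SE 0.30) and one of RT1-Bb at 0.09 log2 (SE 0.16).

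Class II transcripts were also carried by the leukocyte samples. Of the 8, 7 were at least 2-fold higher in leukocytes than in allograft endothelium without overlap, against 8.61% of all genes. RT1-Db1 was higher by 4.14 log2 and RT1-Da by 3.09 log2. With the pan-leukocyte mean of each array as a covariate the median of the list was 0.64 log2. That mean was itself higher in allografts than in normal hearts, so the covariate cannot separate leukocyte RNA from graft type. The part of leukocyte RNA in the class II values was not tested. Both alpha and beta chain promoters, shown because this pair moved together, held CCAAT near the start of the gene.
RT1-Da, chr20:4515165-4515464, plus strand: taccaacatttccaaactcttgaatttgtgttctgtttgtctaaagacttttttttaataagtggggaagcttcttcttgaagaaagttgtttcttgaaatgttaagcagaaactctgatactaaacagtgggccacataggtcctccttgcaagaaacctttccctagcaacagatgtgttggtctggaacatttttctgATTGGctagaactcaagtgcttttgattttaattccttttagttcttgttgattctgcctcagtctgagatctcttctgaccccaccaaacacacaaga
RT1-Db1, chr20:4560113-4560412, minus strand: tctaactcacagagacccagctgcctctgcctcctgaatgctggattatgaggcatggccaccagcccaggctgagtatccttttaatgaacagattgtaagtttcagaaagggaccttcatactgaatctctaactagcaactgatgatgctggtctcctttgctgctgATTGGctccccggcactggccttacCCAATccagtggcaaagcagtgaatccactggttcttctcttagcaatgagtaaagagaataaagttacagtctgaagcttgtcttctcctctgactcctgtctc
The box stood at -49 in RT1-Da and at -80 and -55 in RT1-Db1, and neither promoter held the response element core or the gamma-activated site.

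**Figure D3:**
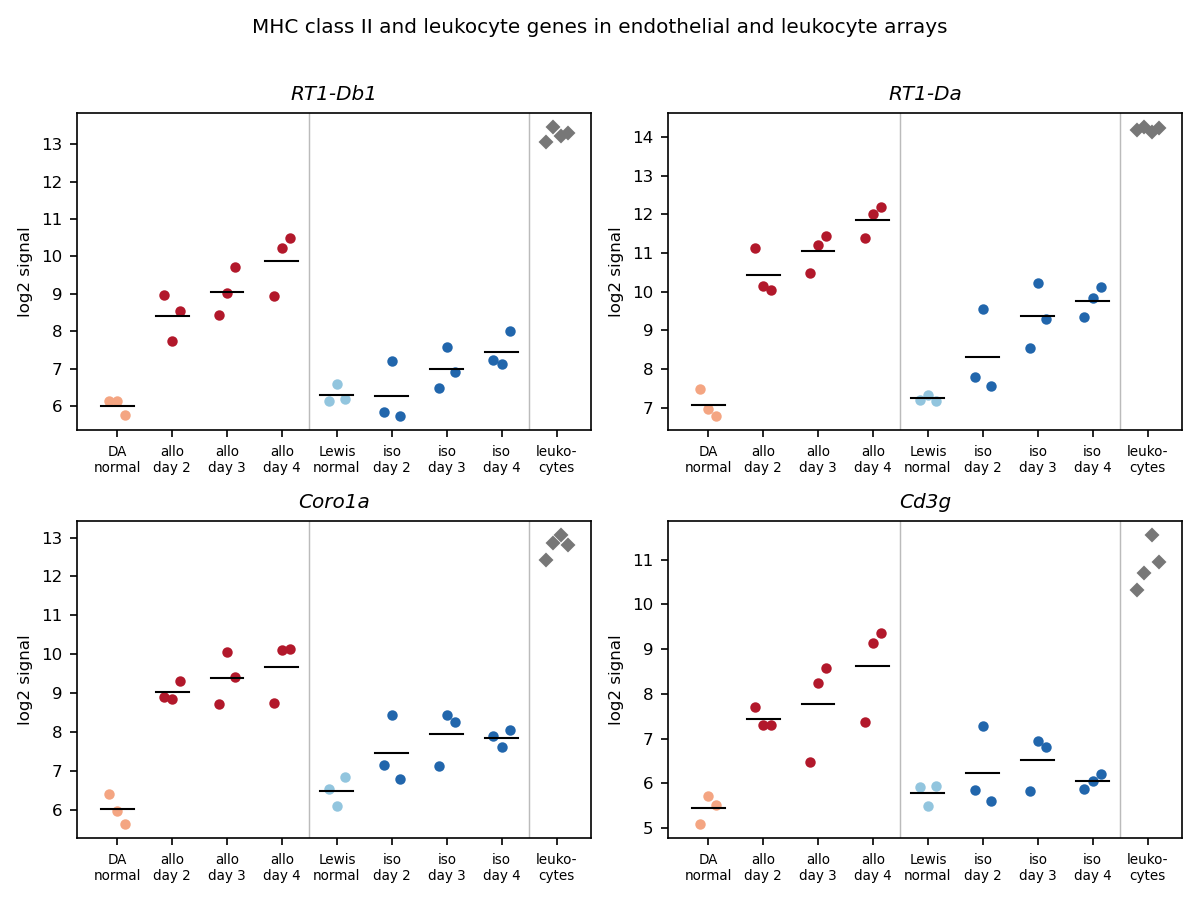
Log2 signal of the MHC class II genes RT1-Db1 and RT1-Da, the leukocyte gene Coro1a and the T cell gene Cd3g in each endothelial array (circles, line at the mean of 3) and in the 4 leukocyte arrays (grey diamonds, after removal of the median difference between both sets). All 4 genes were higher in allografts than in normal DA hearts without overlap, lower on average in isografts than in allografts, and highest in leukocytes.

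Transcripts of T cells and cytotoxic lymphocytes were higher in allografts than in normal DA hearts for most genes measured, and in isografts for few. Of 17 T cell genes 14 rose in allografts and 2 in isografts, and of 12 cytotoxic genes 7 and 0, against 5.57% and 3.29% of all genes. In the alloresponse no gene of either list was called, 9 of 17 and 8 of 12 had an unadjusted p under 0.05 on the higher side (2.16% of all genes), and the medians were 0.51 and 0.62 log2. All 17 and all 12 values were above 0, the lowest at 0.26 and 0.12 log2. Cd3g, a chain of the T cell receptor complex, was at 5.09, 5.71 and 5.52 log2 in normal DA hearts, 7.71, 7.31 and 7.31 in allografts of day 2, 6.48, 8.25 and 8.58 on day 3, and 7.36, 9.14 and 9.37 on day 4, against 5.50 to 7.28 log2 in the 12 samples of Lewis hearts. Its alloresponse was 2.02 log2 (SE 0.60, adjusted p = 0.874), and that of Cd3e, another chain of the complex, was 1.54 log2 (SE 0.45). Granzyme B (Gzmb), a protease that cytotoxic cells inject into targets, was at 4.80 to 5.15 log2 in normal DA hearts, at 4.67 to 6.12 in allografts of day 2, 5.92 to 7.76 on day 3 and 5.84 to 9.38 on day 4, and at 4.68 to 5.41 log2 in all Lewis samples. The values of Gzmb for days 3 and 4 lay above every Lewis sample, and its alloresponse was 1.67 log2 (SE 0.66). Gzma, another granzyme, was at 1.48 log2 (SE 0.59), and Nkg7, a protein of cytotoxic granules, at 1.29 log2 (SE 0.38). Part of the value of Nkg7 came from normal hearts, at 5.65 to 5.92 log2 in DA and 6.30 to 6.83 log2 in Lewis. Its allografts, at 5.71 to 7.67 log2, overlapped its isografts, at 5.71 to 6.46 log2. The mean of the T cell list per array was 6.15 to 7.44 log2 in allografts, 5.78 to 6.39 in isografts and 9.02 to 9.49 in leukocytes. At least 2-fold higher in leukocytes than in allograft endothelium without overlap were 16 of the 17 T cell and all 12 cytotoxic genes, against 8.61% of all genes. How much leukocyte RNA adds to these values was not tested.

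Pan-leukocyte genes showed the same direction with more overlap between graft types. Of 15 measured, 11 rose in allografts and 6 in isografts, against 5.57% and 3.29% of all genes. In the alloresponse 10 had an unadjusted p under 0.05 on the higher side, against 2.16%, and the median was 0.86 log2. Coro1a, an actin regulator of leukocytes, was at 6.41, 5.98 and 5.64 log2 in normal DA hearts, 8.71 to 10.14 log2 in allografts, 6.09 to 6.86 in normal Lewis hearts and 6.80 to 8.44 in isografts. Allografts and isografts did not overlap for Coro1a, and its alloresponse was 2.09 log2 (SE 0.50, adjusted p = 0.506). Rac2, a signalling protein of blood cells, was at 1.28 log2 (SE 0.37), Nckap1l, a subunit of their actin-remodelling complex, at 0.80 log2 (SE 0.21), and Ptprc, which encodes CD45, at 1.20 log2 (SE 0.52). Macrophage genes rose in both graft types, as 15 of 16 rose in allografts and 15 in isografts, with median changes of 2.86 and 2.13 log2. Their alloresponse had a median of 0.58 log2, with 4 of 16 at an unadjusted p under 0.05 on the higher side (2.16% of all genes), among them the scavenger receptor Cd163 at 1.29 log2 (SE 0.56) and lysozyme, Lyz2, at 0.91 log2 (SE 0.38). Lyz2 was at 8.43 to 8.71 log2 in normal DA and 8.94 to 9.63 log2 in normal Lewis hearts, which adds to its value. Its allografts (12.30 to 13.69 log2) and isografts (11.68 to 13.76 log2) overlapped. The macrophage median was 1.48 log2 on day 2, 0.07 log2 on day 3 and 0.41 log2 on day 4. With the pan-leukocyte mean as a covariate the values of Ptprc, Cd53 and Lyz2 turned to -0.43, -0.49 and -0.17 log2. Ptprc and Cd53 are themselves among the genes of that mean, so the drop in their values follows in part from the covariate itself. Among dendritic cell genes, the integrin Itgax was at 1.20 log2 (SE 0.36), and the median of the 8 genes was 0.21 log2. Normal hearts add to the value of Itgax, with 4.86 to 5.25 log2 in DA and 5.34 to 5.94 log2 in Lewis.

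In several other genes with small p-values the means of normal DA and normal Lewis hearts already differed. Mis18a, which helps to mark centromeres, was at 6.53, 6.10 and 6.08 log2 in normal DA hearts and at 6.24 to 7.06 log2 in allografts, against 8.89, 8.81 and 8.82 log2 in normal Lewis hearts and 8.36 to 8.61 log2 in isografts. DA and Lewis samples did not overlap in any condition. Its alloresponse of 0.81 log2 (SE 0.17, adjusted p = 0.381) was a graft difference of -1.79 log2 minus a normal-heart difference of -2.60 log2 (adjusted p = 5.59e-10). Cwc25, a splicing factor, had an alloresponse of 1.09 log2 (SE 0.23, adjusted p = 0.389), made of -1.43 minus -2.52 log2. Pygl, the liver form of glycogen phosphorylase, was at 5.33, 6.03 and 6.05 log2 in normal DA hearts and 6.16 to 7.62 log2 in allografts, so that it rose by 1.06 log2 there, against 7.51 to 7.96 log2 in normal Lewis hearts and 7.31 to 7.90 log2 in isografts. Its alloresponse was 1.21 log2 (SE 0.25, adjusted p = 0.381). Mis18a, Cwc25 and Pygl were also among the genes at least 2-fold higher in leukocytes, by 1.26, 3.15 and 3.32 log2, and the leukocytes carry the strain label Lewis. Whether recipient cells added to the rise in allografts was not tested. Tafa2, a secreted chemokine-like protein, and Scin, which severs actin filaments, stood at 0.71 and 0.57 log2, with adjusted p of 0.508 and 0.598, and both fell in isografts, by 0.63 and 0.48 log2.

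**Figure D4:**
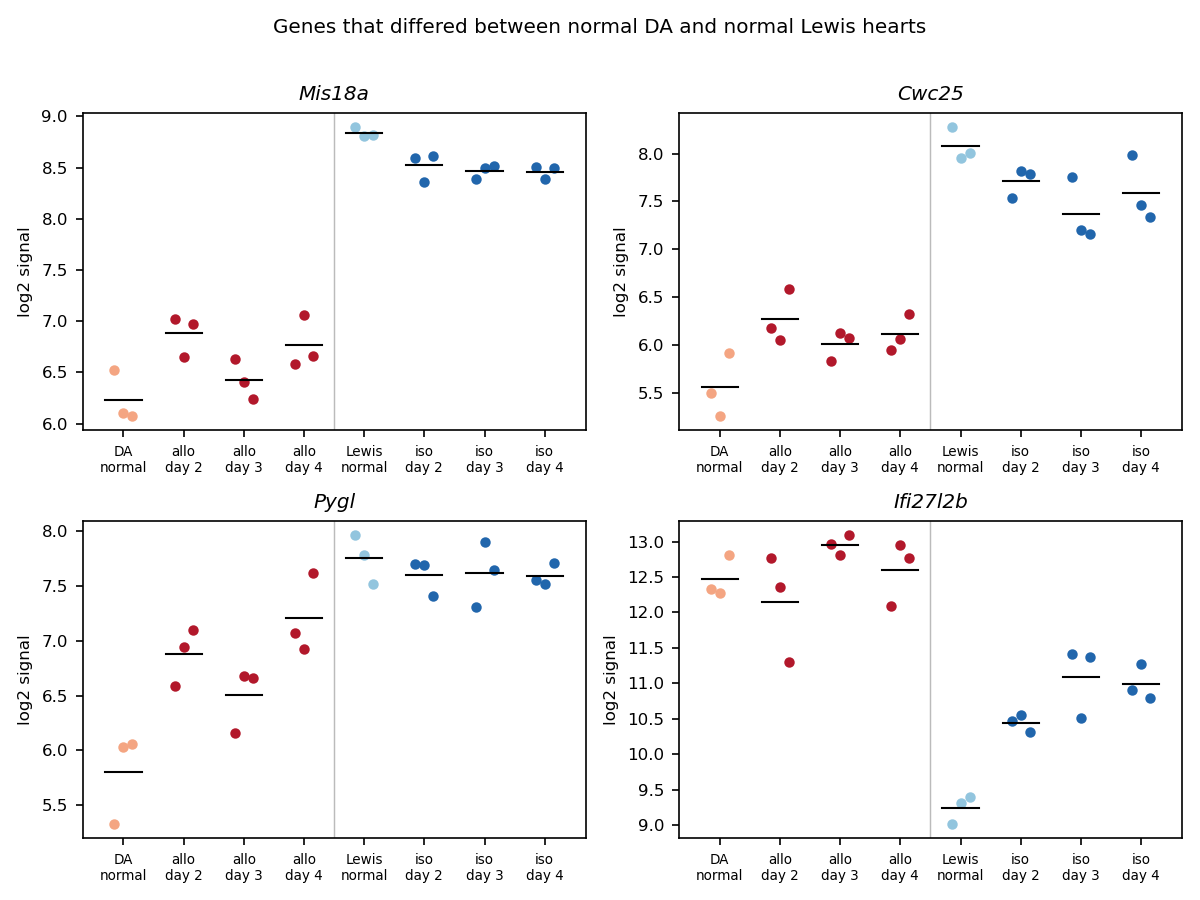
Log2 signal of Mis18a, Cwc25, Pygl and Ifi27l2b in each of the 24 endothelial arrays, 1 point per array and a line at the mean of 3. Normal DA and normal Lewis hearts differed by -2.60, -2.52, -1.95 and 3.23 log2, and in each panel the mean changes within a strain were smaller than the gap between strains.

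The same held on the lower side. Ifi27l2b, an interferon-inducible gene, was at 12.33, 12.27 and 12.81 log2 in normal DA hearts and 11.30 to 13.09 log2 in allografts, against 9.02, 9.31 and 9.40 log2 in normal Lewis hearts and 10.31 to 11.41 log2 in isografts. It rose by 1.60 log2 in isografts (adjusted p = 0.000336) and stood at 0.09 log2 in allografts, and its alloresponse was -1.51 log2 (SE 0.34, adjusted p = 0.502). Fam78b had the smallest p on this side, with -0.70 log2 (SE 0.15, adjusted p = 0.405), and it was at 7.45, 7.60 and 8.03 log2 in normal DA hearts and at 6.61 to 7.13 log2 in all 21 other samples. The normal DA hearts alone stood apart. Slc24a3, a sodium and calcium exchanger, was likewise at 6.94 to 7.12 log2 in normal DA hearts and at 4.96 to 6.37 log2 elsewhere, with an alloresponse of -0.90 log2 (SE 0.24). Gart, an enzyme of purine synthesis, was at 7.61 to 7.72 log2 in normal DA and 7.10 to 7.22 log2 in normal Lewis hearts, with grafts between 7.33 and 7.79 log2, and stood at -0.44 log2 (SE 0.10). Another probe set of Gart, nearly as bright, stood at 0.12 log2 (SE 0.25), so its probe sets disagreed. Dimmer probe sets of Fam78b and Slc24a3 stood at 0.25 (SE 0.16) and -0.17 log2 (SE 0.18). Vps52, which sorts endosomal cargo, Msh3, a mismatch repair protein, Cntrl, a protein of centrioles, Pcdhb9, a protocadherin, and LOC100911946 had values between -0.82 and -0.57 log2 with adjusted p of 0.502 to 0.874.

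Lower in the allografts themselves were Nox4 and Mex3b. Nox4, the hydrogen peroxide-producing oxidase of endothelium, was at 8.89, 8.84 and 8.27 log2 in normal DA hearts, 7.46, 7.65 and 6.99 in allografts of day 2, 8.17, 7.85 and 7.53 on day 3, and 7.82, 7.44 and 7.86 on day 4, against 8.12 to 8.92 log2 in normal Lewis hearts and 8.13 to 8.99 log2 in isografts. Of the allografts only day 3 replicate 1 reached the range of the isografts. Nox4 fell by 1.02 log2 in allografts (adjusted p = 0.00207), stood at 0.11 log2 in isografts and had an alloresponse of -1.13 log2 (SE 0.28, adjusted p = 0.586). Mex3b, an RNA-binding protein, fell by 0.96 log2 in allografts and had an alloresponse of -0.93 log2 (SE 0.22, adjusted p = 0.506), and 8 of its 9 allografts, all but day 3 replicate 1, were below the isograft minimum of 7.77 log2. Nkd2, an inhibitor of Wnt signalling, fell by 0.74 log2 in allografts and stood at -0.60 log2 (SE 0.17). Endothelial markers, for comparison, had a median of -0.17 log2, and 0 of 16 were called or had an unadjusted p under 0.05 by limma.

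Gda, the guanine deaminase, reached its place from the isograft side. It was at 12.18 to 12.54 log2 in normal DA hearts and 12.38 to 12.89 log2 in allografts, and at no more than 12.25 log2 in normal Lewis hearts and 11.12 to 12.06 log2 in isografts. It fell by 0.52 log2 in isografts (adjusted p = 0.0397) and stood at 0.34 log2 in allografts, with an alloresponse of 0.86 log2 (SE 0.20, adjusted p = 0.506). Akr7a3, an aldehyde reductase, and Mroh4 stood at 0.60 and 0.45 log2 with adjusted p of 0.613 and 0.818.

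Type I interferon antiviral genes leaned the other way from the interferon-gamma list. Of 21 measured, 20 had values below 0, 4 had an unadjusted p under 0.05 on the lower side and 0 on the higher, against 1.91% and 2.16% of all genes, and the median was -0.46 log2. None was called. The mean of -0.52 log2 was a graft difference of 0.19 log2 minus 0.70 log2 by which normal DA hearts stood above normal Lewis hearts. Mx2, a dynamin-like antiviral protein, was at 10.06, 9.78 and 9.89 log2 in normal DA hearts, 9.16, 7.75 and 6.33 in allografts of day 2, 9.74, 8.65 and 9.16 on day 3, and 8.59, 8.91 and 10.07 on day 4, against 8.97 to 9.24 log2 in normal Lewis hearts and 8.66 to 9.77 log2 in isografts. The isograft range lay within that of allografts, normal DA hearts were above every graft but allograft day 4 replicate 3, and allograft day 2 replicate 3 was lowest. The alloresponse of Mx2 was -1.26 log2 (SE 0.57), of Irf7, a transcription factor that amplifies interferon production, -1.0 log2 (SE 0.52), and of Mx1 -0.94 log2 (SE 0.63). Mx2 was under an unadjusted p of 0.05 and Irf7 and Mx1 were not. The rest of the 4 were the exonuclease Isg20 at -0.72 log2, the RNA sensor Ifih1 at -0.61 log2, which fell by 0.75 log2 in allografts, and the kinase Eif2ak2 at -0.65 log2. By day the median of the list was -0.95, -0.31 and -0.28 log2 on days 2, 3 and 4, and -0.73 log2 on day 2 without allograft day 2 replicate 3.

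MHC class I and peptide loading genes show what the subtraction removed. Between grafts 10 of 18 were higher in allografts and 0 were lower, against 3.95% and 3.45% of all genes. In the alloresponse none was called, 0 had an unadjusted p under 0.05 in either direction and the median was 0.04 log2. The mean of 0.09 log2 was 0.67 log2 between grafts minus 0.58 log2 between normal hearts. RT1-T24-4, a class I gene of the rat, was at 12.68, 12.81 and 12.92 log2 in normal DA hearts and 12.08 to 12.81 log2 in allografts, and at 9.21 to 9.55 log2 in normal Lewis hearts and 9.24 to 9.59 log2 in isografts. The strains stood apart by 3.43 log2 before and 3.10 log2 after transplantation, and the alloresponse was -0.33 log2 (SE 0.17). For such variable genes a strain difference in RNA and one in how well an allele binds the probes cannot be told apart on this array. Psmb9 and Psmb8, proteasome subunits that cut peptides for class I, were higher in allografts than in isografts by 1.28 and 1.13 log2, and stood at 0.58 and 0.44 log2 in the alloresponse, with SEs of 0.32 for both.

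**Figure D5:**
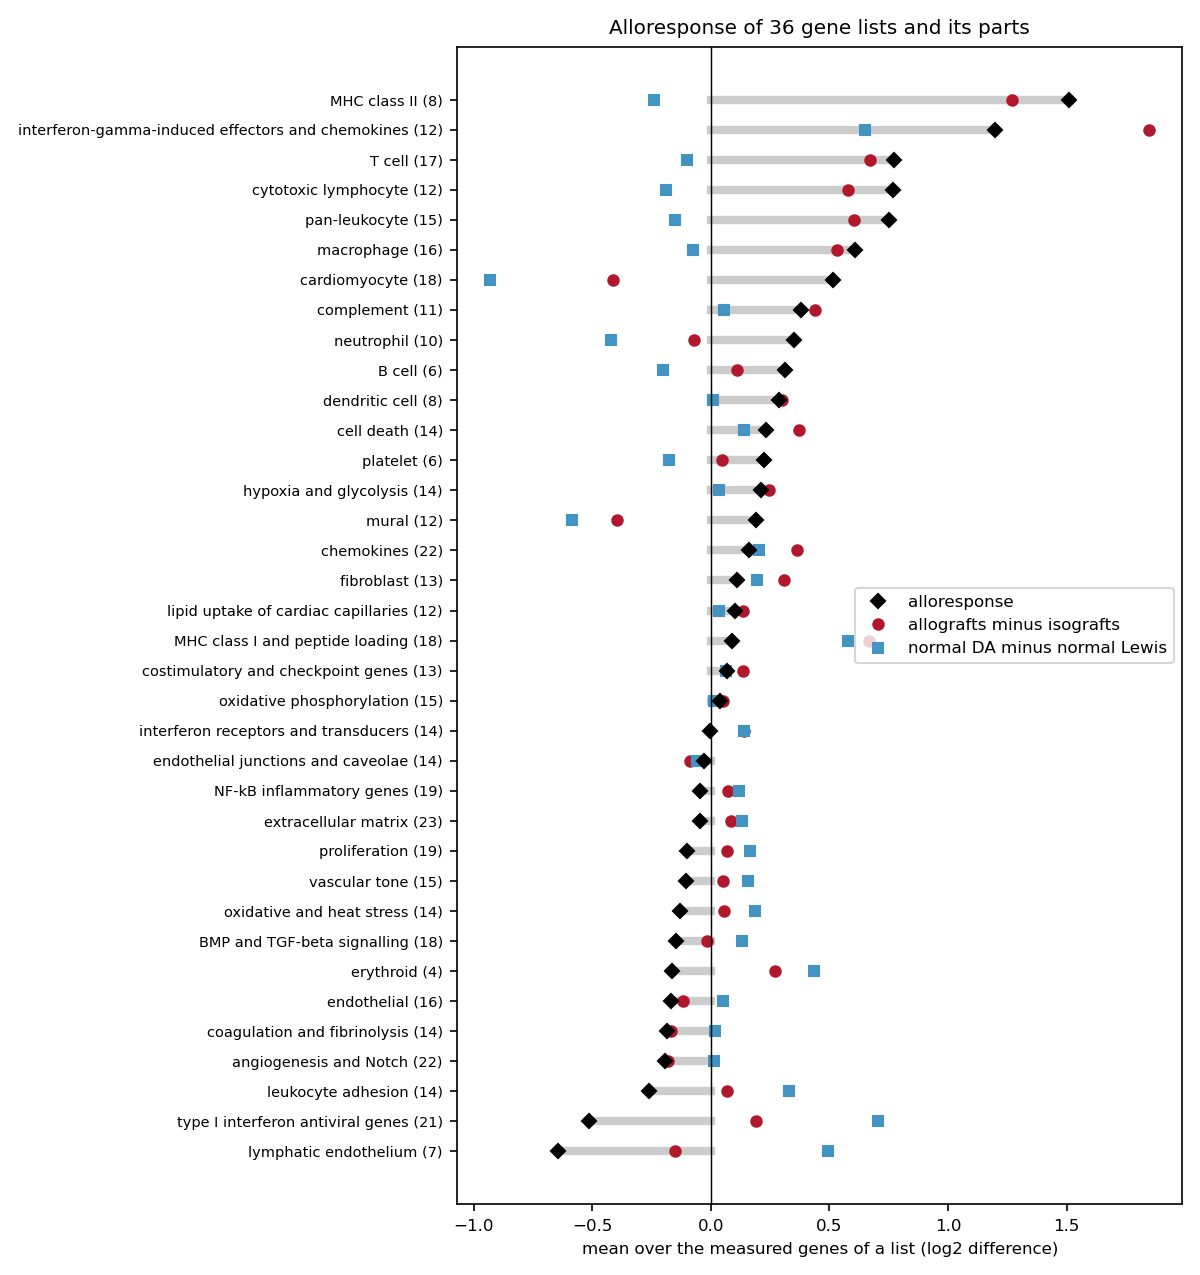
Mean over the measured genes (number in brackets) of each of the 36 gene lists for the alloresponse (black diamonds with grey bars from 0), for allografts minus isografts (red circles) and for normal DA minus normal Lewis hearts (blue squares), in log2. MHC class II and interferon-gamma-induced genes stood highest at 1.51 and 1.20 log2, and for cardiomyocyte, type I interferon and lymphatic genes the normal hearts gave the larger part.

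Of 14 leukocyte adhesion genes 5 rose in allografts and 6 in isografts, against 5.57% and 3.29% of all genes. The alloresponse of the 14 had a median of -0.11 log2. E-selectin (Sele), on which leukocytes roll, was at 9.46, 8.52 and 9.06 log2 in normal DA hearts and 10.60 to 12.12 log2 in allografts, and at 7.69, 8.38 and 7.55 log2 in normal Lewis hearts and 10.71 to 12.24 log2 in isografts. Grafts of both kinds reached the same range from different starting levels. Sele rose by 2.26 log2 in allografts and by 3.54 log2 in isografts, and its alloresponse of -1.28 log2 (SE 0.43, adjusted p = 0.971) came from 1.14 log2 between normal hearts and -0.14 log2 between grafts. P-selectin (Selp), which rose in both graft types, and Icam1, a ligand of leukocyte integrins that rose by 1.58 log2 in isografts and did not pass at 0.55 log2 in allografts, stood at -0.68 (SE 0.50) and -1.03 log2 (SE 0.63).

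Among 22 chemokines 3 had an unadjusted p under 0.05, all on the higher side (2.16% of all genes), and the median was 0.14 log2. Ccl5, a chemokine for T cells that these cells also make, stood at 1.28 log2 (SE 0.53) after a rise of 1.62 log2 in allografts. Xcl1, made by T and natural killer cells, was at 1.01 log2 (SE 0.35), and Ccl19, which guides cells to lymphoid tissue, at 0.69 log2 (SE 0.24). Ccl5 and Xcl1 were higher in leukocytes than in allograft endothelium by 2.90 and 4.33 log2, Ccl19 by 0.29 log2. Of 11 complement genes 2 had an unadjusted p under 0.05 on the higher side, again against 2.16%, the central component C3 at 1.19 log2 (SE 0.47) and the protease C1r at 0.92 log2 (SE 0.36), with a median of 0.23 log2. C1r was at 7.97 to 8.44 log2 in normal DA hearts, 8.77 to 9.19 in allografts of day 2, 9.44 to 9.77 on day 3 and 9.34 to 11.42 on day 4. It was at 8.52 to 8.89 log2 in normal Lewis hearts, which adds to its value, and at 8.84 to 9.49 log2 in isografts. Allografts of each day reached below the highest isograft, and the highest values, 10.55 and 11.42 log2, were allografts of day 4. C1r was 0.57 log2 lower in leukocytes than in allograft endothelium, whereas C3 was 4.34 log2 higher.

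Heart muscle transcripts had values above 0 although allografts had less of them than isografts. Of 18 cardiomyocyte genes 5 had an unadjusted p under 0.05 on the higher side (2.16% of all genes), 16 values were above 0, and the median was 0.47 log2. Without Lewis normal replicate 2 the median was 0.17 log2 and Mb stood at 0.50 log2, and the median without any 1 other array was 0.32 to 0.60 log2. The mean of 0.52 log2 was -0.41 log2 between grafts minus -0.93 log2 between normal hearts, where 7 of the 18 were lower in DA (0.528% of all genes). In isografts 8 fell (1.26% of all genes), and in allografts 3 fell and 1 rose (3.84% and 5.57% of all genes). Cardiac troponin T (Tnnt2) was at 6.14, 6.74 and 7.61 log2 in normal DA hearts, 5.62 to 7.40 log2 in allografts, 8.70, 9.98 and 8.62 log2 in normal Lewis hearts and 6.60 to 8.01 log2 in isografts. Normal Lewis hearts stood above all other endothelial samples. The alloresponse of Tnnt2 was 1.44 log2 (SE 0.51), of troponin I (Tnni3) 1.15 log2 (SE 0.37), of troponin C (Tnnc1) 1.08 log2 (SE 0.34) and of myoglobin (Mb) 0.86 log2 (SE 0.34), with adjusted p of 0.881 to 1. Myl3, a myosin light chain, completed the 5 at 0.98 log2. The mean of the list per array was 6.45 to 6.93 log2 in normal DA hearts, 7.38 to 8.10 in normal Lewis hearts, 6.23 to 6.88 in allografts and 6.63 to 7.16 in isografts.

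Lymphatic endothelial markers had a median of -0.81 log2 over 7 genes, with 6 of 7 below 0 and 0 called or at an unadjusted p under 0.05 by limma. The median rested on single normal hearts, with -0.32 log2 without Lewis normal replicate 2, -0.53 log2 without DA normal replicate 3 and -1.18 log2 without Lewis normal replicate 3. Lyve1, the hyaluronan receptor of lymphatic vessels, was at 8.59 to 9.46 log2 in normal DA hearts, 9.42 to 12.11 in allografts, 7.51 to 9.14 in normal Lewis hearts and 10.01 to 11.58 in isografts. It rose by 2.41 log2 in isografts and stood at 1.42 log2 in allografts (adjusted p = 0.052), and the alloresponse was -0.99 log2 (SE 0.64). Mmrn1, a secreted protein of lymphatic endothelium and platelets, varied from 7.70 to 11.07 log2 among allografts and stood at -1.20 log2 (SE 0.83), with -0.59 log2 without Lewis normal replicate 2 and -1.87 log2 without Lewis normal replicate 3.

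Of the lists for endothelial identity, growth and tone, those for endothelial markers, angiogenesis and Notch, and vascular tone had medians below the lower quartile of all genes, -0.11 log2, and no gene of any was called. The list medians were -0.17 log2 for 16 endothelial markers, -0.23 log2 for 22 genes of angiogenesis and Notch signalling, -0.08 log2 for 18 of BMP and TGF-beta signalling, where 2 had an unadjusted p under 0.05 on the lower side against 1.91% of all genes, 0.00 log2 for 14 of junctions and caveolae and -0.16 log2 for 15 of vascular tone, against 0.01 log2 for all 14217. Smad9, a transducer of BMP signals, fell in both graft types, by 1.67 log2 in allografts and 1.01 log2 in isografts, and its alloresponse was -0.66 log2 (SE 0.24). Smad5, its relative, stood at -0.37 log2. Nos3, the endothelial nitric oxide synthase, was at -0.67 log2, the VEGF receptor Kdr at -0.21 log2, the lymphatic growth factor Vegfc at -0.62 log2, the protein C receptor Procr at -0.62 log2 and Plvap, the diaphragm protein of fenestrated vessels, at -0.54 log2, and none of these 5 had an unadjusted p under 0.05. Angptl4, an inhibitor of lipoprotein lipase, rose by 3.96 log2 in allografts and 2.64 log2 in isografts and stood at 1.33 log2 (SE 0.52). Il1b, an inflammatory cytokine, was at 1.54 log2. Normal hearts add to the value of Il1b, with 5.29 to 5.62 log2 in DA and 5.92 to 6.90 log2 in Lewis, and its allografts and isografts overlapped. The 19 NF-kB genes it belongs to had a median of 0.02 log2 with 0 at an unadjusted p under 0.05. No gene of the lists for proliferation (19), extracellular matrix (23), oxidative phosphorylation (15), hypoxia and glycolysis (14), oxidative and heat stress (14), costimulation (13) or cell death (14) reached an unadjusted p of 0.05, a count of 0 in each by limma.

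Genes with an alloresponse of at least 2-fold, chosen by size alone and described without a test, numbered 73 on the higher side and 16 on the lower. Of the 73, 66 had risen in allografts and 22 in isografts, against 5.57% and 3.29% of all genes. Both changes enter the value used for the choice, so these counts follow in part from it. At least 2-fold higher in leukocytes without overlap were 53, against 8.61% of all genes. In 58 the difference between grafts was the larger part, while in 15 the difference between normal hearts was. Of the 16, 4 had fallen in allografts (3.84% of all genes) and 6 had risen in isografts (3.29%), again in part by the choice. Higher in leukocytes were 0, and in 9 the normal hearts gave the larger part.

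On single days 0 genes were called on day 2 (0%), 0 on day 3 (0%) and 1 on day 4 (0.00703%), with 480, 334 and 783 genes at an unadjusted p under 0.05 by limma. The gene of day 4 was Sectm1b, whose alloresponse was 0.68, 1.81 and 3.35 log2 on days 2, 3 and 4 (SE 0.37 each, adjusted p = 0.000197 on day 4). Sectm1b was also the gene called between day 4 and day 2 (0.00703%), a difference in which the normal hearts cancel, with 2.68 log2 (SE 0.37, 95% interval 1.91 to 3.44, adjusted p = 0.00662). Without allograft day 4 replicate 1 there were 81 called genes on day 4 and 40 between day 4 and day 2. Ido1 had alloresponses of 0.99, 3.95 and 5.59 log2 by day, Batf2 of -0.12, 1.51 and 3.46 log2, Wars1 of 0.18, 1.34 and 2.24 log2 and Tap1 of -0.41, 0.49 and 1.32 log2. Igtp and Gbp2, interferon-inducible GTPases, went from -0.44 and -0.55 log2 on day 2 to 1.55 and 1.60 log2 on day 4, and Pfkfb3, an activator of glycolysis, from -0.20 to 1.72 log2. For these 7 genes the difference between day 4 and day 2 had adjusted p of 0.341 to 0.445 and did not pass. Allograft day 2 replicate 3 was the lowest of its day for Sectm1b, Ido1, Batf2, Wars1, Tap1, Igtp and Gbp2. Without it the values of day 2 were 1.71 log2 for Ido1, 0.20 for Batf2, 0.50 for Wars1, -0.11 for Tap1, -0.06 for Igtp and 0.01 for Gbp2, and Sectm1b still passed between day 4 and day 2 (2.49 log2, adjusted p = 0.0353). The median of the interferon-gamma list was -0.50, 1.23 and 1.95 log2 by day, and 0.14 log2 on day 2 without that array. The median of MHC class II was 1.65, 1.31 and 1.89 log2. Days share their normal hearts, so their values are not independent of each other.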

How the data were processed

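RNA of sorted rat heart cells had been hybridised as biotin-labelled cRNA, and the authors deposited log2 signals made with RMA in the affy package, per the submitters' processing notes, with versions and background settings not given in the sources used here. The array held 31099 probe sets. The platform annotation pairs 20826 with a single gene, and 20758 of these were named through RefSeq. Left out were 57 controls, 436 with several genes and 9780 unlisted ones. For 4525 genes with several probe sets the one with the highest mean was kept, which gave 14217 genes. The 24 endothelial arrays, with medians of 6.51 to 6.59 log2, were fitted together in limma 3.58.1 (R 4.3.3, data.table version 1.17.8) as 8 group means with 16 residual degrees of freedom and eBayes, and p-values were adjusted by Benjamini-Hochberg over all genes. A gene was called at an adjusted p under 0.05. RMA draws all arrays to 1 distribution, so a change in total RNA is not measured, and the number of arrays limits the precision. Named were the 15 genes higher and 12 lower, called or with the smallest p, up to 5 members of each of 36 lists (506 of 577 members measured), and the 5 genes most like Sectm1b. Further genes were chosen after their values were seen, and members and lists were chosen with earlier results of these data known. The code was tested on simulated data. Alternatives were other normalizations, filters, weights, a leukocyte covariate, a replicate block and leaving out arrays or days. Arrays with the same replicate number did not all deviate together (correlations of -0.347 to 0.583 over 84 pairs). Their median correlation was 0.0991, against -0.0447 over 168 pairs with other numbers. The labels describe no pairing, so numbers were not used as pairs in the main fit, and the replicate block is given as an alternative.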

Additional observations from a re-analysis of the deposited data

Results flagged for a closer look

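The change of Sectm1b from normal to grafted hearts differed between allografts and isografts by a test of that difference, with 1.95 log2 for the average of days 2 to 4, 3.35 log2 for day 4 and 2.68 log2 for day 4 against day 2. The adjusted p-values by limma were 0.0348, 0.000197 and 0.00662. It was the gene called in each of these comparisons. Groups of 3 arrays are too small for the test for single outlying samples, so none was run.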

How the results depend on the processing

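For the averaged alloresponse 1 gene was called higher and 0 lower. With arrays centred on their medians, with the pan-leukocyte covariate, without day 3 and without day 4 the higher count was 0. It was 0 also, with 0 lower, when all 20826 probe sets were tested, an alternative chosen after seeing the data. With array weights, which ran from 0.286 to 5.19, it was 11 with 3 lower. The estimation of these weights stopped before its convergence tolerance, so the counts made with them are uncertain. Array weights gave 3062 called genes for allografts, 1391 for isografts, 3206 between grafts, 554 between normal hearts, 4, 2 and 187 on days 2, 3 and 4, and 28 for day 4 against day 2. With weights 12 named genes passed that had not, RT1-Db1, Mis18a, Cwc25, RT1-DMb, Ido1, RT1-Da, Nckap1l, Fam78b, Gart, Nox4, Wars1 and Cxcl11, and the cause was not tested. The pan-leukocyte covariate left 3 called genes for allografts, 46 for isografts and 210 between grafts. Leaving out day 2, 3 or 4 gave 623, 571 and 549 genes between grafts, and 411 for isografts without day 3, with fewer arrays in each fit.

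Leaving out single arrays gave 0 to 1 higher and 0 to 0 lower genes for the average, 677 to 1812 for allografts, 339 to 851 for isografts, 805 to 1626 between grafts, 75 to 175 between normal hearts, 0 to 0 on day 2, 0 to 1 on day 3 (the 1 without allograft day 4 replicate 3), 1 to 81 on day 4 and 1 to 40 for day 4 against day 2. The 81 and the 40 were without allograft day 4 replicate 1, and day 4 had 2 without allograft day 2 replicate 3 and without allograft day 3 replicate 1. Sectm1b passed in 12 of 36 settings, with values of 1.24 to 2.58 log2.

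Of 3272 values of 94 named genes under the alternatives, 3229 kept direction and side of the threshold, 24 lost the call (all Sectm1b), 12 gained it and 7 changed sign. With the pan-leukocyte covariate Il1b was -0.62, Ptprc -0.43, Lyz2 -0.17, Cd53 -0.49 and Kdr 0.01 log2. Ptprc and Cd53 are themselves part of this covariate. Cxcl10 was -0.02 log2 without day 4, and from -0.01 log2 (without Lewis normal replicate 2) to 1.20 log2 when single arrays were left out. With the replicate number as a block, which the labels do not describe as pairing, 1557 genes were called for allografts, 785 for isografts and 1 higher for the alloresponse, and 16 of 24 arrays correlated best with their own number, a hint from the data alone. Filtering dim genes moved the T cell median to 1.17 log2, and without day 2 the interferon-gamma median was 1.59 log2. The single-day values without allograft day 2 replicate 3 were also chosen after seeing the data. With 3 arrays per group, the normal hearts limit what could be called.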
